A study of Mus musculus with 150 samples.

Results

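The comparison describes the spleen and the thymus of inbred mice, and its members were the 5 arrays titled Spleen and the 5 arrays titled Thymus, 10 of the 150 arrays of the series. Each organ had 1 array per strain (129, B6, DBA, AJ, C3H), all described in the labels as wild-type inbred mice, and the arrays were paired by strain label. The titles carry different identifiers for the spleen and the thymus of each pair. A pair is therefore matched by strain label only, and organ cannot be told apart from a difference in collection. Biotin-labelled target made from about 10 µg of total RNA was hybridized to 1-colour Affymetrix arrays, and the deposited unit is an intensity per probe set. The labels used here state no age, sex or treatment, nor whether an array held 1 animal or a pool, so the p-values measure the spread between these arrays across strains.

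The spleen and the thymus are both lymphoid organs with different tasks. The spleen filters blood: its white pulp holds mature B and T cells, and its red pulp holds macrophages that remove old red cells and, in the mouse, precursors of red cells, granulocytes and platelets. The thymus makes T cells: immature thymocytes divide, rearrange their antigen receptor genes and are selected on a network of epithelial cells. RNA from whole organs mixes all of these cells, so fewer cells of a type and less RNA per cell cannot be told apart.

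Values below are intensities on a linear scale, listed for the strains in the order 129, B6, DBA, AJ, C3H, and values under a floor of 10.4 were raised to it. A difference is the log2 level in spleen minus that in thymus ± its standard error over the 5 strain pairs, from a limma fit with strain as a block. A gene was called at a Benjamini-Hochberg adjusted p under 0.05 with a difference of at least 2-fold. It was tested only if its mean passed the median level of the series in at least 1 of the organs, so a dim gene could enter only through the organ in which it was bright.

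The markers of the organs followed the labels. Cd79a, which encodes a signalling chain of the B cell receptor, had intensities of 2532, 2839, 2605, 2401 and 2741 in spleen, against 57.5, 137, 101, 73.3 and 61 in thymus, a difference of 5.01 ± 0.18 (limma adjusted p = 8.6e-07). Cd8a, a co-receptor carried by most thymocytes and by cytotoxic T cells, had intensities of 47.1, 204, 76.5, 83.7 and 69.2 in spleen, against 2483, 2116, 2077, 1949 and 1817 in thymus, a difference of -4.62 ± 0.28 (limma adjusted p = 7.81e-06). The organs did not overlap for either gene, and the B6 spleen had the most Cd8a among the spleens.

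Several arrays stood apart within their organ. The B6 spleen was low for red cell precursor and cell division genes. The spleen labelled C3H carried digestive enzymes of the pancreas. The thymus labelled C3H carried skeletal muscle genes, and the AJ and DBA thymuses carried brown fat genes. Their values are given beside the results they touch. The strain labels were compared with the other 8 body tissues, using the 100 genes with the strongest strain effect in those tissues. As a description across genes, which are not independent, 8 of the 10 arrays correlated best with the strain of their own label. The spleen labelled DBA correlated at 0.78 with the C3H profile and at 0.299 with the DBA profile, and the spleen labelled C3H correlated at 0.884 with the DBA profile and at 0.268 with the C3H profile. No sample was relabelled. In the fit of all 10 arrays, with 1 per strain and organ, a difference is the same with or without strain in the model. The strain labels bear there only on its standard error and on the calls. Without strain as a block, 619 genes were called higher in spleen and 453 higher in thymus. Without the arrays labelled DBA and C3H the counts were 597 and 422.

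The sequences shown here are promoter windows of genes that differed between the organs in groups, from RefSeq on build GRCm38.p6. They are shown because their genes belong to the B cell, MHC class II and cell division groups described below. Each window runs from 100 bases before the annotated start to 20 bases after it, and capitals mark the motif. In Vpreb3, a gene of the B lineage, they mark the octamer ATGCAAAT, here on the opposite strand as ATTTGCAT, at chr10:75948200-75948319 on the plus strand.
Vpreb3: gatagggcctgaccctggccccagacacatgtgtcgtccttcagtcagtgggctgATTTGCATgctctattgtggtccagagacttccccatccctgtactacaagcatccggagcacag
In MHC class II genes the capitals mark a CCAAT box, read as ATTGG on the strand shown. H2-Aa lies at chr17:34287804-34287923 on the minus strand, H2-DMb2 at chr17:34145149-34145268, H2-Oa at chr17:34092279-34092398 and H2-Ob at chr17:34238805-34238924, these on the plus strand.
H2-Aa: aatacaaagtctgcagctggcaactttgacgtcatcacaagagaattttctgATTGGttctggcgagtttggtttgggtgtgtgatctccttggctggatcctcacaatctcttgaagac
H2-DMb2: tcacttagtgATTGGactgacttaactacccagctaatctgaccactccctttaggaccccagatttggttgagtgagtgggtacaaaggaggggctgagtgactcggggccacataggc
H2-Oa: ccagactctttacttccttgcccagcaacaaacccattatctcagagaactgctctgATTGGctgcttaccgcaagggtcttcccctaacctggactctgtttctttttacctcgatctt
H2-Ob: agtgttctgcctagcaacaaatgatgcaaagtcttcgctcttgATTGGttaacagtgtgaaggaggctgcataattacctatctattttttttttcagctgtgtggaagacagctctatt
In mitosis genes the capitals mark the CHR element TTTGAA, or TTCAAA where it lies on the other strand. Cdc20 lies at chr4:118437324-118437443 on the minus strand, Kif11 at chr19:37376282-37376401 on the plus strand and Top2a at chr11:99024170-99024289 on the minus strand.
Cdc20: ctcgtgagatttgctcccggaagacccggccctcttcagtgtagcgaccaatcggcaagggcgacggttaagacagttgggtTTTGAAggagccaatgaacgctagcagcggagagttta
Kif11: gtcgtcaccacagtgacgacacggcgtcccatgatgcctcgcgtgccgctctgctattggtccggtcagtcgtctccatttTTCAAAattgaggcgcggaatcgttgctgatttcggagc
Top2a: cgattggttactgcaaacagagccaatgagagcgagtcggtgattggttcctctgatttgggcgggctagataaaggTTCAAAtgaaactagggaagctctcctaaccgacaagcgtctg

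Motifs were searched on both strands from 250 bases before to 50 bases after the start, and the promoters had a window for 4225 of the 5208 genes tested. TTTGAA was present in 14 of the 17 mitosis promoters with a window (82.4%), against 14.9% of the genes tested and 20.2% of all 27025 genes in the table. CCAAT was present in all 7 MHC class II promoters with a window, against 42.6% of the genes tested and 41.1% of all genes, and 4 measured members had no window. It was not particular to that list. It was in 15 of 17 mitosis, 12 of 17 replication and 6 of 10 red cell precursor promoters. In B cell, T cell receptor and thymocyte promoters it was in 4 of 15, 3 of 10 and 3 of 11. The printed windows of Cdc20, Kif11 and Top2a also hold it, in lower case. An E2F site, TTTGGCGC or TTTCGCGC, was present in 7 of 17 replication promoters (41.2%), against 2.06% and 0.929%. The octamer was present in 2 of 15 B cell promoters (13.3%), Blnk and Vpreb3, against 1.54% and 1.97%. The octamer was present in 2.75% of the promoters of genes higher in spleen and 2.22% of those higher in thymus, and TTTGAA in 15% and 20.5%. Of 32851 windows, 2683 held more than 1 of the 4 motifs and 77 held overlapping matches. A match is a stretch of letters and not evidence that a factor binds.

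Across all genes, 5208 were tested, 623 (12.0%) were called higher in spleen and 454 (8.72%) higher in thymus. These shares are the background for the counts in every list below. The median difference of all genes tested was -0.13. Spleen and thymus did not overlap for 928 of the 1077 called genes, and 1028 had the same sign in all 5 strains. Both counts cover called genes only, so the thresholds of the call fix part of them. The same shares over all genes tested were not computed. Neither these counts nor the lack of overlap of a gene named below therefore has a background to be read against. A difference of at least 8-fold was found for 105 genes higher in spleen and 51 higher in thymus.

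**Figure D1:**
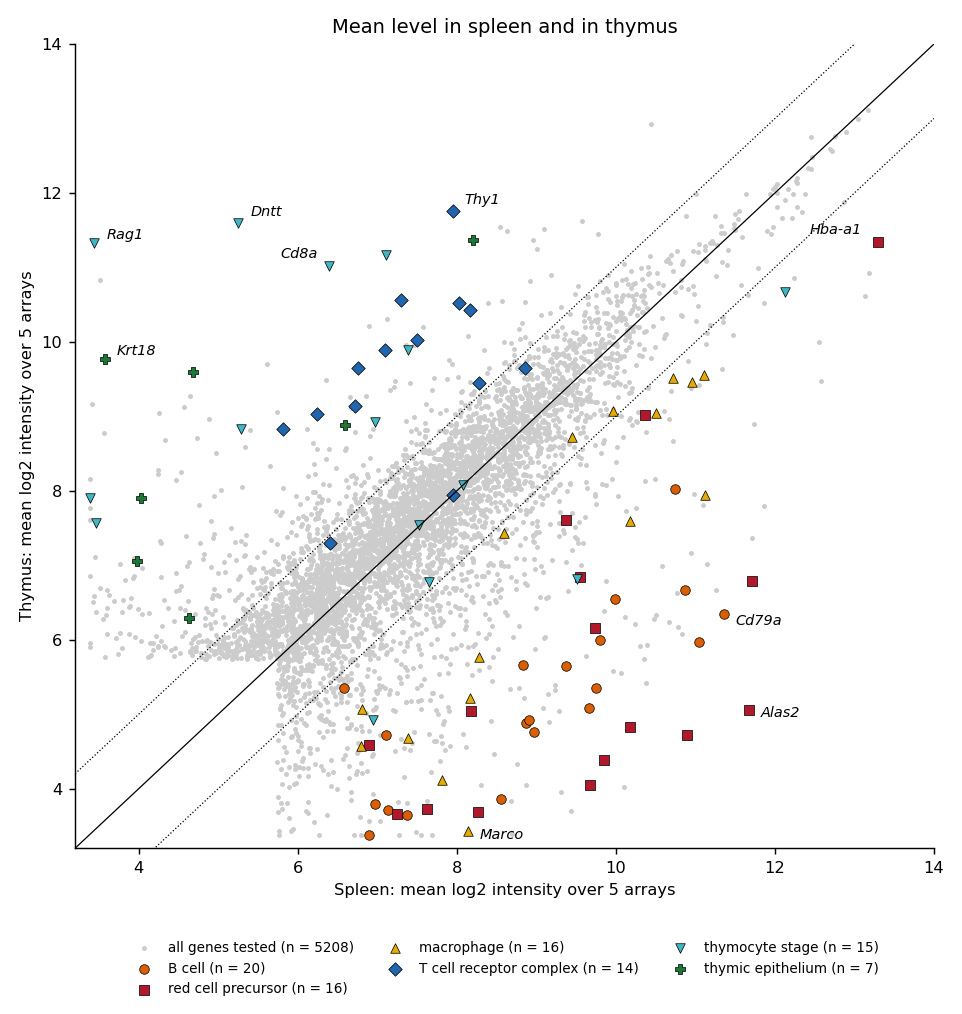
Mean log2 intensity in spleen (x axis) and in thymus (y axis) of the 5208 genes tested, with members of 6 gene lists coloured; the solid line is equality and the dotted lines are 2-fold. B cell, red cell precursor and most macrophage genes lie below the lines, and most T cell receptor and thymocyte genes and the thymic epithelium genes lie above; the empty lower left corner is the filter on dim genes.

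The 12 largest differences toward spleen included red cell precursor, B cell and immunoglobulin genes. Alas2, the first enzyme of haem synthesis in red cell precursors, had intensities of 4308, 1835, 3302, 3609 and 3901 in spleen, against 29.2, 20.4, 78.3, 14.2 and 62.6 in thymus, a difference of 6.61 ± 0.33 (limma adjusted p = 3.74e-06). Slc4a1, the anion exchanger of the red cell membrane, differed by 6.18 ± 0.40. Ighv14-2, an immunoglobulin heavy chain variable segment, differed by 6.08 ± 0.14. Its probe set can also read related segments. Cxcl13, the chemokine that draws B cells into follicles, had intensities of 537, 644, 1069, 517 and 825 in spleen, against 11.8, 10.4, 10.4, 17.1 and 16.8 in thymus, a difference of 5.74 ± 0.24 (limma adjusted p = 1.64e-06). Its thymus values were at or near the floor. Car1, Rhd and Rhag, 3 further red cell precursor genes, differed by 5.62, 5.47 and 5.34. Rsad2, an antiviral protein induced by interferon, had intensities of 662, 446, 850.2, 473 and 856 in spleen, against 10.4, 10.4, 30.7, 14.4 and 18.9 in thymus, a difference of 5.35 ± 0.19. Coch, which encodes a secreted protein, had intensities of 189, 752, 468, 433 and 420.5 in spleen, against 10.4, 10.8, 10.4, 10.4 and 10.4 in thymus, a difference of 5.30 ± 0.27. The remaining largest differences were those of Ms4a1 and Cd79a, both B cell genes, and of Ighg3, an immunoglobulin constant region.

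The 12 largest differences toward thymus included genes of receptor recombination and keratins, and Cd8a. Rag1, part of the recombinase that cuts antigen receptor genes, had intensities of 12.8, 10.4, 10.4, 10.4 and 10.4 in spleen, against 3116, 3227, 3448, 1281 and 2550.0 in thymus, a difference of -7.89 ± 0.21 (limma adjusted p = 2.84e-07). Only the 129 spleen was above the floor, and the AJ thymus was the lowest thymus. A second, dimmer Rag1 probe set had a difference of -0.71 and was not called. Ccl25, a chemokine of thymic epithelium that attracts T cell progenitors, had intensities of 10.4, 11.7, 10.4, 11.7 and 12.8 in spleen, against 1428, 1519, 2624, 1861 and 1896 in thymus, a difference of -7.32 ± 0.16. Dntt, which adds bases at the joints of receptor genes, had intensities of 27.1, 73.3, 40.6, 28.6 and 34.8 in spleen, against 3264, 3214, 3114, 2663 and 3211 in thymus, a difference of -6.34 ± 0.20. These 3 genes are among the best known of the cortical thymus. The epithelial genes Krt18, Dsp, Krt8 and Krt17, which encode keratins and a desmosome protein, differed by -6.20, -5.76, -4.92 and -4.78. Krt17 was at the floor in all 5 spleens, so its thymus level was at least 27.4-fold higher. Fxyd2, a subunit that regulates the sodium pump, had intensities of 46.1, 16.5, 30.2, 10.4 and 10.4 in spleen, against 177, 476, 844, 622 and 907 in thymus, a difference of -4.79 ± 0.56, which was -5.50 without the 129 pair. Ldhb, a lactate dehydrogenase subunit, had intensities of 13.1, 38.7, 18.8, 21.4 and 37.2 in spleen, against 603, 522, 530.0, 576 and 559 in thymus. H2-Q1, a class Ib histocompatibility gene whose probe set can read related genes, had intensities of 14.4, 10.4, 14.4, 10.4 and 10.4 in spleen, against 403, 429, 235, 279 and 1416 in thymus, and the thymus labelled C3H was the highest. Trbv13-2, a T cell receptor beta variable segment, differed by -4.62 ± 0.41.

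**Figure D2:**
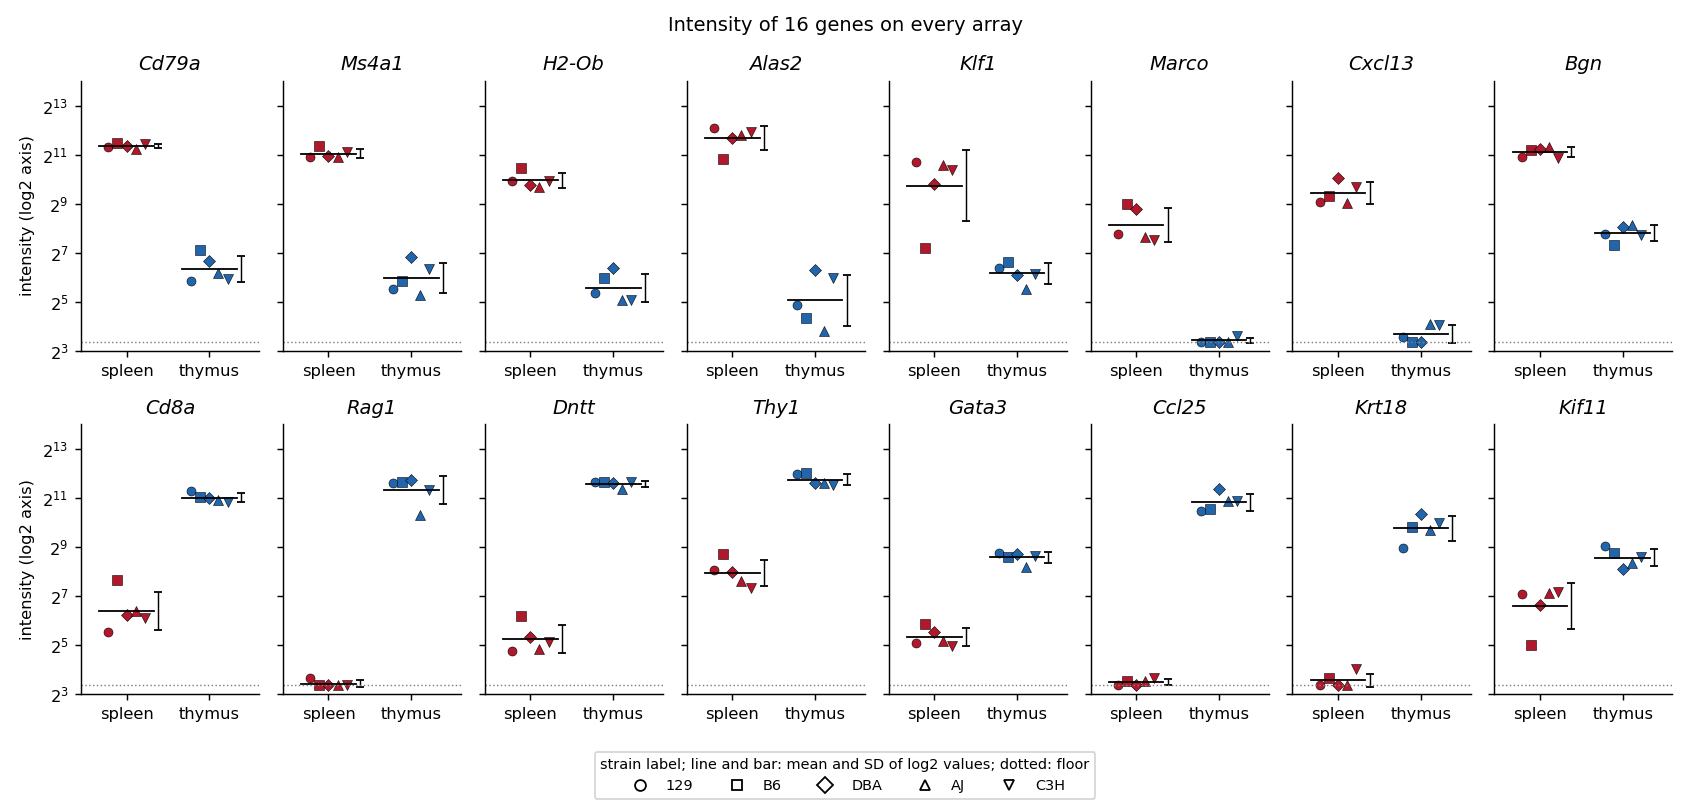
Intensity (log2 axis) of 16 genes on each of the 10 arrays, spleen left of thymus, with a marker for each strain label; the line and bar give the mean and SD of the log2 values (n = 5 per organ) and the dotted line is the floor. The organs are apart for each of these genes; the B6 spleen is the lowest spleen for Alas2, Klf1 and Kif11, and the AJ thymus is the lowest thymus for Rag1.

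B cell genes were higher in spleen across the whole list. Of 24 listed genes 20 were measured, 20 passed the filter and 20 were called higher in spleen, against 12.0% of all genes tested, with a median difference of 3.76. Ms4a1, which encodes the surface protein CD20, had intensities of 1903, 2631, 1954, 1933 and 2216 in spleen, against 46.3, 57.8, 114, 39.4 and 80.2 in thymus, a difference of 5.07 ± 0.22 (limma adjusted p = 1.89e-06). Cd22, an inhibitory receptor of B cells, had intensities of 252, 463, 422, 361 and 426 in spleen, against 26.1, 10.4, 10.4, 10.4 and 21.5 in thymus, and 3 thymuses were at the floor. Spib, a transcription factor of B cells, had intensities of 751, 1176, 968, 714 and 582 in spleen, against 37, 29.5, 40, 24.3 and 41.6 in thymus, a difference of 4.59 ± 0.21. The organs did not overlap for any of these. The B cell regulators Pax5, Ebf1 and Pou2af1 differed by 3.16, 3.51 and 3.98. Ebf1 was at the floor in all 5 thymuses, so its spleen level was at least 11.4-fold higher. The signalling genes Blk, Blnk and Btk differed by 3.80, 3.43 and 3.99. Fcer2a, a receptor for immunoglobulin E found on mature B cells, had intensities of 346, 1171, 895, 1047 and 1270.4 in spleen, against 40.4, 45.9, 35.1, 27.4 and 62.5 in thymus, with the 129 spleen well under the other spleens. The smallest difference in the list was that of Cd40, a co-stimulatory receptor, at 1.24 ± 0.38 (limma adjusted p = 0.0251). Cd40 lost its call without the AJ pair, at 0.76, and without the C3H pair, at 1.28 (limma adjusted p = 0.0528). The summed intensity of the 20 genes ran from 13035 to 18774 in spleen, against 928 to 1323 in thymus.

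Immunoglobulin genes were mostly higher in spleen, with exceptions. Of 15 listed genes 9 were measured and 7 passed the filter, and 4 were called higher in spleen. Ighm, the heavy chain of immunoglobulin M, had intensities of 9440.2, 8863, 9787, 8257 and 10262 in spleen, against 1801, 1679.8, 2045, 2225 and 1985 in thymus, a difference of 2.26 ± 0.10. Of 9 Ighm probe sets tested 8 were called higher in spleen, and the other had a difference of 1.12. Jchain, which joins secreted immunoglobulin units, had intensities of 2416, 1927, 2727, 2040.3 and 2029.7 in spleen, against 185, 171, 217, 337 and 335 in thymus, a difference of 3.21 ± 0.20. Ighd, the heavy chain of immunoglobulin D, had intensities of 229, 327, 414, 368 and 397 in spleen, against 57.7, 46, 57.2, 39.6 and 50.2 in thymus. All 3 were apart between the organs. Igha, the heavy chain of immunoglobulin A, had intensities of 764, 1031, 234, 905 and 123 in spleen, against 117, 363, 209.8, 524 and 511 in thymus, the organs overlapped, and it did not pass the test (0.62 ± 0.56, limma adjusted p = 0.377). A second, dimmer Igha probe set was called higher in spleen by 3.06 (limma adjusted p = 0.000444). Among spleens the lowest values were on the arrays labelled DBA and C3H. Xbp1, a transcription factor of antibody secreting cells, had a difference of 0.68 ± 0.13, under 2-fold. Iglc1 had a difference of -0.56 ± 0.18, also under 2-fold and of the opposite sign. Its mean log2 level was 5.52 in spleen and 6.08 in thymus, below 7.03 in muscle and 6.58 in heart. This probe set therefore may not follow lambda chain expression. Taken by probe set, where 6763 were tested and 12.5% were called higher in spleen and 9.11% higher in thymus, 26 of 29 heavy chain and 29 of 30 kappa chain probe sets were called higher in spleen. The medians were 3.93 for heavy and 4.06 for kappa chain probe sets. Of 2 lambda chain probe sets 1 was called higher in spleen, at 5.38, and the other, that of Iglc1, was not called. Many of these share sequence, so they are not separate measurements of separate genes.

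MHC class II genes, which present antigen to helper T cells, were mostly higher in spleen. All 11 listed genes were measured and passed the filter, and 9 were called higher in spleen, with a median difference of 1.38, against 3.76 for the B cell list. The count was 7 without the B6 pair, with a median of 1.20, and 7 with all 50 body tissue arrays in the fit, H2-Ab1 and H2-Oa losing their calls in both. H2-Oa also fell just under 2-fold without the 129 pair and without the DBA pair, at 0.95 in each. H2-Ob, a B cell chain that modulates peptide loading, had intensities of 985, 1405, 877, 815 and 981 in spleen, against 41.7, 63, 83.1, 33.7 and 33.4 in thymus, a difference of 4.38 ± 0.21 (limma adjusted p = 2.75e-06). H2-DMb2 and H2-DMb1, chains of the peptide loading factor, differed by 3.07 and 2.05. Ciita, the master activator of the class II genes, had intensities of 286, 392, 329, 268 and 395 in spleen, against 73.3, 53.3, 71.7, 65.8 and 62.1 in thymus, a difference of 2.35 ± 0.17. H2-Aa, H2-Ab1 and H2-Eb1, chains of the presenting molecules, differed by 1.38, 1.16 and 1.34. Cd74, the invariant chain, had intensities of 6548, 8604, 7999, 6435 and 7992 in spleen, against 3607, 3379, 4476, 3697 and 3824 in thymus, apart between organs but just under the 2-fold threshold at 0.98 ± 0.11. H2-Oa, the partner of H2-Ob, had a difference of 1.01 ± 0.17.

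H2-Ea, the alpha chain of the second presenting molecule, varied between arrays, with those labelled DBA and C3H in opposite order in the organs. Its intensities were 10.4, 10.4, 232, 177 and 4053 in spleen, against 10.4, 10.4, 2004, 24.5 and 19.2 in thymus, and it did not pass the test (1.49 ± 1.28, limma adjusted p = 0.351). The 129 and B6 arrays were at the floor in both organs. The highest value among spleens was on the array labelled C3H and the highest among thymuses on the array labelled DBA. The spleens labelled DBA and C3H correlated best with each other's strain profile, and the fit paired arrays by label. What an exchange of these labels would do to the difference was not tested. In the other body tissues the DBA arrays were at 991 in white adipose tissue, 232 in kidney, 190 in heart and 177 in adrenal, while the C3H arrays were at 10.4 in white adipose tissue, 15 in kidney, 10.4 in heart and 10.4 in adrenal. The lowest DBA values were in liver and testes, at 10.4 and 14.0, and the highest C3H value was 201 in brown adipose tissue. Some mouse strains are known to lack H2-Ea transcript, among them those of the b haplotype such as B6.

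Most T cell receptor complex genes were lower in spleen. Of 20 listed genes 14 were measured and passed the filter, and 11 were called higher in thymus, against 8.72% of all genes tested, with a median difference of -2.51. Thy1, a surface glycoprotein of T cells, had intensities of 266, 423, 254, 199 and 160.4 in spleen, against 4089, 4118, 3131, 3125 and 2953 in thymus, a difference of -3.80 ± 0.14 (limma adjusted p = 9.17e-07). Cd3g, Cd3d and Cd3e, the invariant chains of the receptor, differed by -3.26, -2.80 and -2.49. Cd247, the zeta chain, had intensities of 74, 69.3, 60.8, 51.4 and 34.6 in spleen, against 389, 497, 473, 441 and 491 in thymus, a difference of -3.03 ± 0.20. The spleen labelled C3H was the lowest spleen for each of these 4 chains. Zap70 and Lcp2, which carry the receptor's signal, differed by -2.27 and -1.17. The co-receptors and co-stimulators Cd6, Cd28, Cd27 and Cd5 differed by -2.90, -2.79, -2.53 and -2.42. Cd2, Lat and the kinase Fyn were not called, with differences of -0.78, -0.89 and 0.01. By probe set, all 4 receptor beta, all 3 receptor gamma and both receptor alpha probe sets that passed the filter were called higher in thymus, with medians of -3.19, -3.53 and -1.79.

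Genes of thymocyte stages moved in both directions. Of 20 listed genes 16 were measured and 15 passed the filter, 9 were called higher in thymus and 3 higher in spleen. Beside Rag1, Dntt and Cd8a, Rag2, the second recombinase subunit, had intensities of 10.4, 10.4, 10.4, 10.4 and 10.4 in spleen, against 403, 337, 212, 98.4 and 273 in thymus. All spleens were at the floor, so the thymus was at least 22.9-fold higher, and the AJ thymus was again the lowest. Ptcra, the surrogate alpha chain of the early receptor, had intensities of 14, 10.4, 10.4, 10.4 and 10.4 in spleen, against 227, 264, 161, 197 and 132 in thymus, a difference of -4.11 ± 0.22. Cd8b1 and Cd4 differed by -4.05 and -2.51, the receptor Ccr9 for Ccl25 by -3.54 and Notch1, the receptor that commits progenitors to the T lineage, by -1.94. The 3 genes higher in spleen are also used by other cells. Cd24a, a surface protein of red cell precursors and B cells as well as thymocytes, had intensities of 6340.4, 2147, 5007, 4947 and 5378 in spleen, against 1613, 1552, 1531, 1658 and 1785 in thymus, and the B6 spleen was the lowest spleen. Dtx1, a regulator of Notch signalling, differed by 2.69 ± 0.15 and Kit, the receptor for stem cell factor, by 2.02 ± 0.25. Il2ra, a marker of early thymocytes, did not pass the filter and had intensities of 10.4, 11.7, 10.4, 10.4 and 10.4 in spleen, against 23.6, 34.5, 38.5, 28.2 and 41.5 in thymus. Il7r and Cd1d1 had differences of -0.01 and -0.02 and were not called.

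Of 17 listed transcription factors of the T lineage 14 were measured and 13 passed the filter, and 7 were called higher in thymus. Gata3, needed for helper T cell fate, had intensities of 34.6, 57.9, 47.1, 36 and 31.1 in spleen, against 434, 385, 422, 293 and 402 in thymus, a difference of -3.25 ± 0.17 (limma adjusted p = 4.84e-06). Satb1, an organiser of thymocyte chromatin, had intensities of 346, 497, 409.8, 301 and 337 in spleen, against 3090.2, 3169, 3389, 2325 and 3118 in thymus, a difference of -3.01 ± 0.11. Myb, a factor of immature blood cells, differed by -2.86 ± 0.18 and Sox4 by -2.60 ± 0.15. The organs were apart for all 4. Tcf12, Lef1 and Egr1 differed by -1.94, -1.40 and -1.13. Ets1 and Id3 had differences of -0.90 and -0.78, under 2-fold. A dimmer Ets1 probe set had the opposite sign, at 0.32, and was not called. Id2, an inhibitor of E proteins used by innate lymphoid cells, had a difference of 0.81 ± 0.24 and was not called. Ikzf1, Runx1 and Tcf3 overlapped between the organs and were not called, with differences of 0.66, -0.67 and -0.59.

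**Figure D3:**
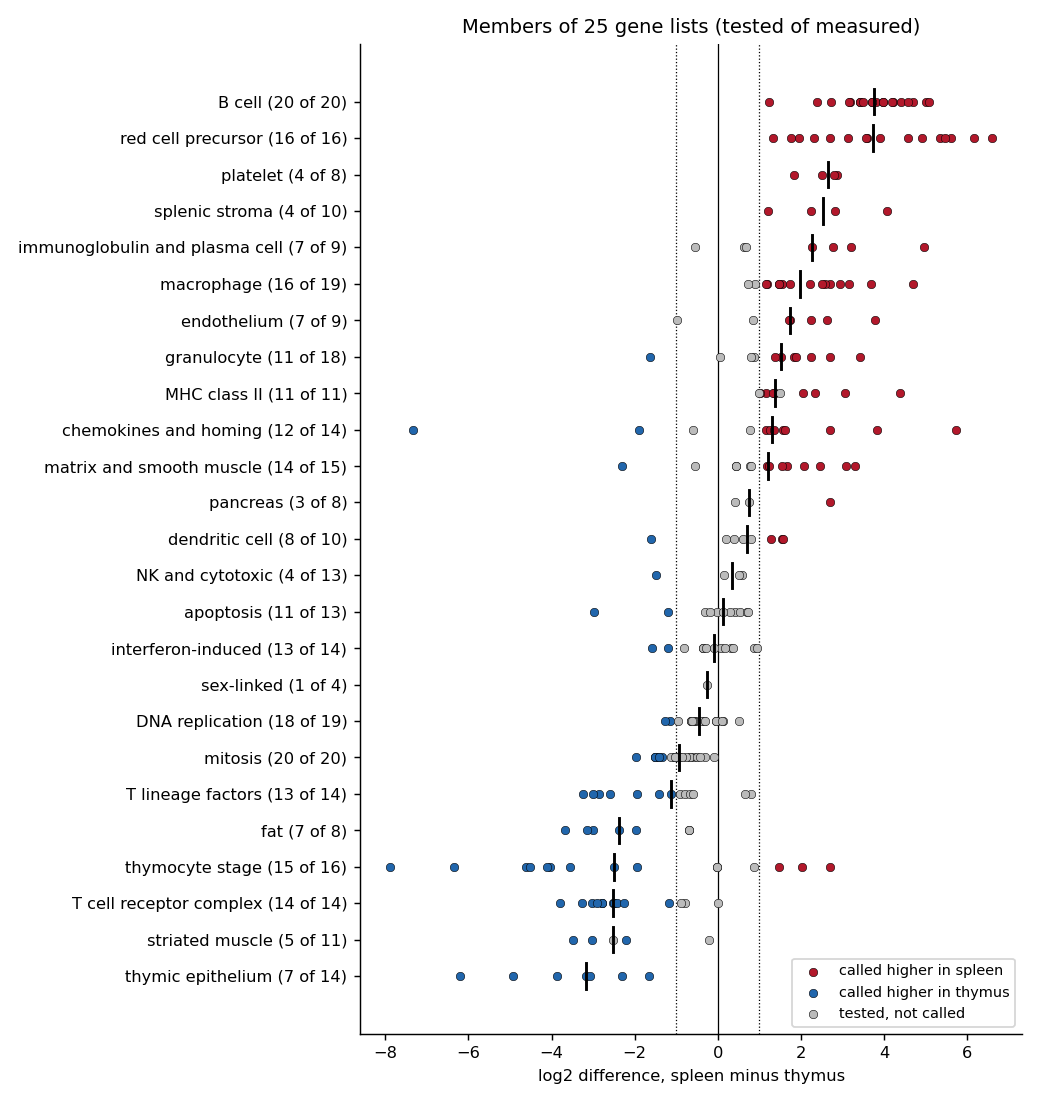
Log2 difference, spleen minus thymus, of every member that passed the filter in the 25 gene lists with such a member (members tested of members measured in brackets), with the list's median as a black bar. B cell and red cell precursor genes lie to the right of the 2-fold line without exception, and thymic epithelium genes lie to the left of it; most replication genes lie between the lines.

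Most genes of DNA replication did not pass the test. Of 22 listed genes 19 were measured and 18 passed the filter. Of these, 2 were called, both higher in thymus, against 8.72% of all genes tested. The list had a median difference of -0.46. Mcm5, a subunit of the replicative helicase, had intensities of 1958, 446, 961, 1641 and 1413 in spleen, against 1040.2, 1232, 854, 1146 and 1128 in thymus, a difference of 0.09 ± 0.30 (limma adjusted p = 0.815). Pcna, the sliding clamp, had intensities of 1399, 685, 1347, 1806 and 1535 in spleen, against 2229, 2197, 1948, 1441 and 1532 in thymus, a difference of -0.51 ± 0.25. Prim1, a primase subunit, had intensities of 74.1, 14.9, 52.9, 96.8 and 99.9 in spleen, against 204, 140.4, 109, 101 and 150.4 in thymus, a difference of -1.28 ± 0.40 (limma adjusted p = 0.0283), and Cdc45, a helicase partner, differed by -1.14 ± 0.27. The B6 spleen was the lowest of the spleens for all 18 tested members. Averaged over the list, the log2 level was 6.70 in the B6 spleen and 8.12 to 8.82 in the other spleens, against 8.27 to 8.87 in thymus. Without the B6 pair the median difference was -0.08, 9 of 18 members were above 0, and Prim1 and Cdc45 lost their calls at -0.79 and -0.81. Prim1 also lost its call without the 129 pair, at -1.23, and without the DBA pair, at -1.34.

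Some mitosis genes were lower in spleen, and the B6 spleen again stood apart. Of 23 listed genes 20 were measured and passed the filter, 7 were called higher in thymus, and the median difference was -0.93. Kif11, a motor that separates the spindle poles, had intensities of 138, 31.9, 99.5, 141 and 144 in spleen, against 523, 433, 279, 323 and 391 in thymus, a difference of -1.96 ± 0.34 (limma adjusted p = 0.00207). Bub1 and Cdc20, of the spindle checkpoint, differed by -1.52 and -1.44, and Top2a, which untangles chromosomes, by -1.51 ± 0.36. Plk1, Ttk and Mad2l1 differed by -1.35, -1.40 and -1.06, and lost their calls without the B6 pair, at -0.99, -0.88 and -0.74. Ttk also lost its call without the C3H pair, at -1.39 (limma adjusted p = 0.0505), and 1 of 3 Plk1 probe sets was not called, at -0.62. These 7 genes include Kif11, Top2a and Cdc20, whose promoter windows with the CHR element are printed above. The proliferation marker Mki67 had intensities of 1296, 177, 813, 1011 and 906 in spleen, against 1007, 1298, 975, 801 and 939.7 in thymus, and the cyclin Ccna2 had intensities of 1157, 144, 614, 1057 and 995 in spleen, against 768, 821, 472, 628 and 820.1 in thymus. Neither passed the test, with differences of -0.50 ± 0.43 and -0.10 ± 0.43. Cdk1, the mitotic kinase, had intensities of 593, 65.3, 259.8, 481 and 469 in spleen, against 892, 820.3, 462, 580.1 and 574 in thymus, a difference of -1.13 ± 0.46 (limma adjusted p = 0.0695). The list's average log2 level was 6.37 in the B6 spleen and 7.76 to 8.45 in the other spleens, against 8.40 to 9.11 in thymus. Without the B6 pair 4 members were called higher in thymus and the median difference was -0.53. Mki67 and Ccna2 then turned to 0.10 and 0.50 (limma adjusted p = 0.569 and 0.00855), both under 2-fold and not called.

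Red cell precursor genes were higher in spleen, and the B6 spleen stood apart. Of 25 listed genes 16 were measured, passed the filter and were called higher in spleen, with a median difference of 3.75. Klf1, a transcription factor that switches on globin genes, had intensities of 1677, 147, 892, 1520.2 and 1327 in spleen, against 84, 98.7, 69, 45.9 and 70.4 in thymus, a difference of 3.57 ± 0.55 (limma adjusted p = 0.00115). Gata1, the master factor of the lineage, had intensities of 314, 24.4, 169, 245 and 260.4 in spleen, against 12.3, 10.4, 10.4, 23.2 and 10.4 in thymus, a difference of 3.59 ± 0.48. In both, the B6 spleen was far below the other spleens. Epor, the erythropoietin receptor, had intensities of 350.3, 38.7, 191, 383 and 308 in spleen, against 11.1, 15.2, 10.4, 12.8 and 17.9 in thymus. Car2, Slc4a1 and Epb42, of the red cell cytoplasm and membrane, differed by 4.92, 6.18 and 4.57. Urod, an enzyme of haem synthesis, had intensities of 1148, 161, 723, 916 and 1034 in spleen, against 186, 205, 172, 224 and 188 in thymus. It was the only list member with the opposite sign in 1 strain pair, B6. Hba-a1, alpha globin, had intensities of 11023, 9705, 9916, 8827 and 10789 in spleen, against 2136, 1151, 4389, 2386 and 4622 in thymus, a difference of 1.95 ± 0.26, and was high in both organs. Its transcript is also carried by red cells in blood, and its probe set can read the near-identical copy. Averaged over the 16 members, the log2 level was 7.68 in the B6 spleen and 9.83 to 10.4 in the other spleens, against 5.33 to 5.84 in thymus. Without the B6 pair the median difference was 4.43 and 16 of 16 members were called. Klf1, Car1, Rhd, Rhag and Epb42 then differed by 4.32, 6.56, 6.42, 6.24 and 5.39.

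**Figure D4:**
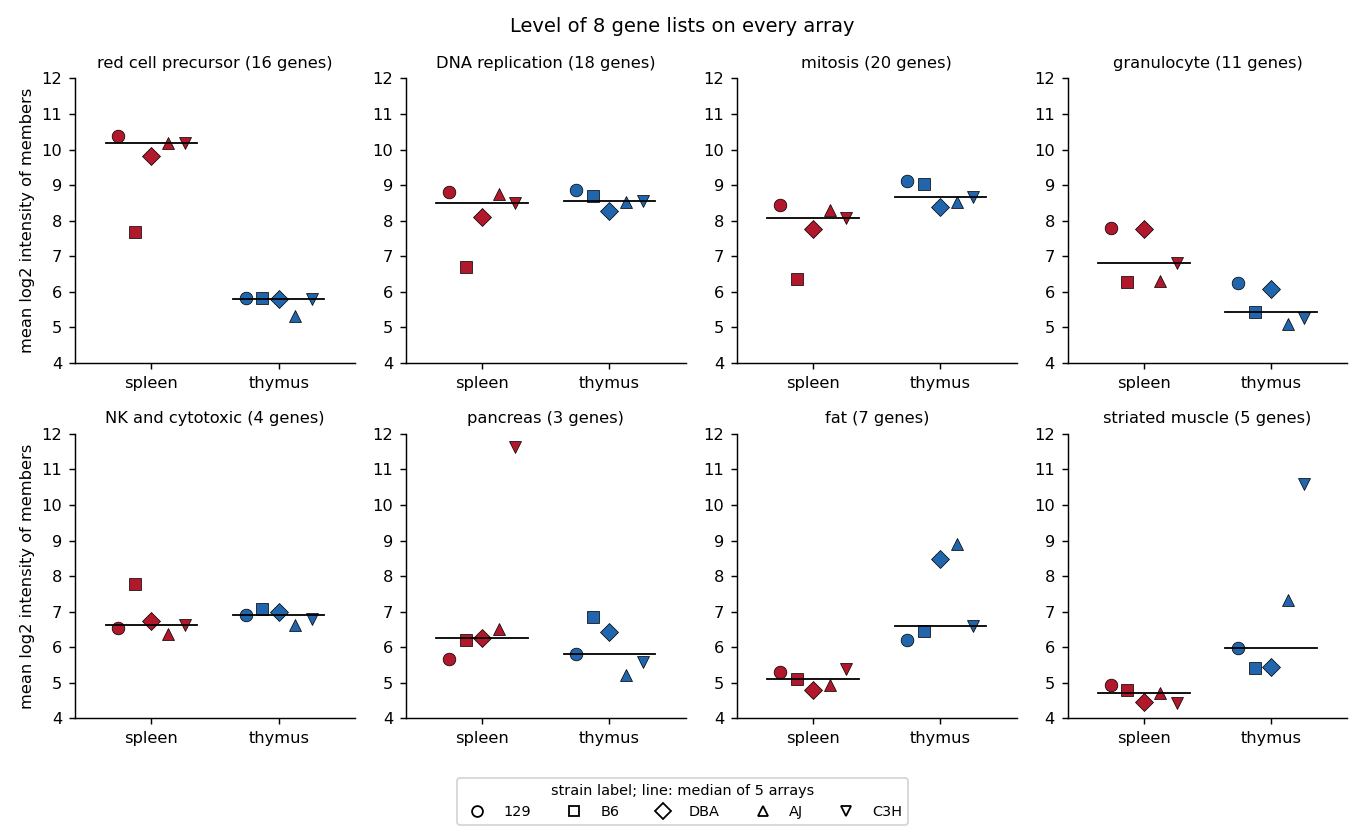
Mean log2 intensity of the tested members of 8 gene lists on each array, spleen left of thymus, with a marker for each strain label and a line at the median of 5 arrays. The B6 spleen is the lowest spleen for red cell precursor, replication and mitosis genes and the highest for NK and cytotoxic genes; the spleen labelled C3H is high for pancreas genes, the thymus labelled C3H for striated muscle, and the AJ and DBA thymuses for fat.

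The remaining myeloid and platelet genes were mostly higher in spleen. Of 19 listed granulocyte genes 18 were measured and 11 passed the filter, 7 were called higher in spleen and 1 higher in thymus. Tested without the filter, 8 of the 18 were called higher in spleen and 1 higher in thymus. Ngp, a neutrophil granule protein, had intensities of 558, 75.1, 631, 94.8 and 213 in spleen, against 48.6, 10.4, 43.3, 16.6 and 10.4 in thymus, a difference of 3.42 ± 0.28 (limma adjusted p = 3.61e-05). S100a9 and S100a8, calcium-binding proteins of neutrophils, differed by 2.69 and 2.24, and the peroxidase Mpo by 1.88. Without the 129 pair Mpo did not pass the filter. The 129 and DBA arrays were the highest of their organ for Ngp, and S100a8 had intensities of 1012, 429, 1465, 447 and 583 in spleen, against 289, 124, 205, 95.8 and 101 in thymus. Mmp9, a collagenase, was the gene higher in thymus, at -1.64 ± 0.21. Mmp8 was at the floor on all 10 arrays. Of 14 listed platelet genes 8 were measured and 4 passed the filter, and those 4 were called higher in spleen. They passed the filter only through their spleen level, so the filter favoured this direction. With no filter 6 of the 8 genes were called higher in spleen and 0 higher in thymus. Gp1bb, a platelet adhesion receptor chain, had intensities of 97.4, 33.8, 112, 66.9 and 108 in spleen, against 10.4, 10.4, 10.4, 10.4 and 10.4 in thymus, at least 7.35-fold higher in spleen. Vwf, F5 and Gp9, for adhesion and clotting, differed by 2.79, 2.50 and 1.84. The B6 spleen was the lowest spleen for all 4. Pf4 was at the floor in all 5 spleens and in 4 thymuses.

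Most macrophage genes tested were higher in spleen. Of 20 listed genes 19 were measured and 16 passed the filter, and 14 were called higher in spleen, with a median difference of 1.98. Some of them, among them Marco, Spic and Adgre1, passed the filter only through their spleen level, so the filter favoured this direction. With no filter 14 of the 19 genes were called higher in spleen and 0 higher in thymus. The median difference was then 1.56, and 16 of the 19 were above 0. Marco, a scavenger receptor of marginal zone macrophages, had intensities of 218, 513, 440.3, 197 and 181 in spleen, against 10.4, 10.4, 10.4, 10.4 and 12.3 in thymus, a difference of 4.71 ± 0.29 (limma adjusted p = 8.61e-06). Spic, a factor required by red pulp macrophages, had intensities of 96.5, 329, 270.3, 228 and 298 in spleen, against 10.4, 10.4, 19.7, 19.9 and 37.5 in thymus, a difference of 3.69 ± 0.29. Hmox1, which breaks down haem, had intensities of 2252, 2558, 2146, 2579.6 and 1709 in spleen, against 291, 231, 304, 186 and 243 in thymus, a difference of 3.17 ± 0.16. Mrc1, Csf1r and Adgre1, receptors of tissue macrophages, differed by 2.94, 2.57 and 2.70. A dimmer Csf1r probe set had a difference of 0.40 and was not called. In Marco, Spic, Hmox1, Mrc1, Csf1r and Adgre1 the organs did not overlap, and the B6 spleen was the lowest in none. C1qa and C1qb, complement subunits, were under 2-fold at 0.90 and 0.73, while C1qc differed by 1.20. Siglec1, a marker of metallophilic macrophages, was at the floor on all 10 arrays.

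Dendritic cell genes were called in both directions and 1 cytotoxic gene was called, and the lists' median differences were 0.70 and 0.33. Of 12 listed dendritic cell genes 10 were measured and 8 passed the filter: Itgax, Cd86 and Flt3 were called higher in spleen, at 1.58, 1.55 and 1.27. Flt3 was not called when all its probe sets were averaged, at 0.35. Ccl22, a chemokine of activated dendritic cells, was called higher in thymus, with intensities of 75.8, 80.7, 73.6, 39.9 and 73.4 in spleen, against 188, 181, 198, 154 and 320.1 in thymus. Ccl17, its relative, did not pass the filter and had intensities of 12.5, 13.8, 10.4, 10.4 and 10.4 in spleen, against 31.1, 37.5, 49.6, 33 and 74.8 in thymus. Of 18 listed NK and cytotoxic genes 13 were measured and 4 passed the filter. Gzma, a granzyme, was called higher in thymus, with intensities of 51.5, 102, 84.1, 41.2 and 71 in spleen, against 181, 233, 197, 207 and 135 in thymus, a difference of -1.50 ± 0.22. Ccl5, a chemokine of effector lymphocytes, had intensities of 261, 933, 426, 290.3 and 349 in spleen, against 321, 173, 285, 191 and 466 in thymus and was not called (limma adjusted p = 0.218). Klrd1, an NK receptor chain that did not pass the filter, had intensities of 49.7, 209, 76.5, 42.2 and 10.9 in spleen, against 26.7, 46.8, 10.4, 30.9 and 52.4 in thymus. In both of these the B6 spleen was the highest array.

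Chemokines, their receptors and integrins were divided between the organs. Of 17 listed genes 14 were measured and 12 passed the filter, 8 were called higher in spleen and 2 higher in thymus. Beside Cxcl13, Ccr6, a receptor of mature B cells and some T cells, had intensities of 588, 803, 534, 511 and 628 in spleen, against 33.1, 50.2, 75.6, 22.4 and 47.2 in thymus, a difference of 3.84 ± 0.23 (limma adjusted p = 7.29e-06). Klf2, a factor that permits exit from the thymus, had intensities of 126, 384, 101, 247 and 143 in spleen, against 28.9, 37.5, 31.5, 26.7 and 16 in thymus, a difference of 2.70 ± 0.28. S1pr1, a receptor used for that exit and a target of Klf2, differed by 1.36 ± 0.32. Ltb, a cytokine that builds lymphoid tissue, differed by 1.63 ± 0.20. Itgae, the integrin CD103 that binds epithelium, was higher in thymus with intensities of 12.2, 23, 26.9, 35.7 and 10.6 in spleen, against 98.4, 112, 41.9, 38.5 and 112 in thymus. Itgae lost its call without the 129 pair, at -1.61 (limma adjusted p = 0.0556). Cxcl12, a chemokine that retains blood cells in marrow, was under 2-fold at 0.78 by its brightest probe set, while its other probe sets were called higher in spleen, at 2.06 and 2.00. Its receptor Cxcr4 had a difference of -0.60.

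The thymic epithelium genes that passed the filter were higher in thymus. Of 17 listed genes 14 were measured and 7 passed the filter, and those 7 were called higher in thymus. With no filter 10 of the 14 genes were called higher in thymus and 0 higher in spleen. Krt18, a keratin of simple and cortical epithelium, had intensities of 10.4, 12.8, 10.4, 10.4 and 16.3 in spleen, against 507, 894, 1323, 825 and 1028 in thymus, a difference of -6.20 ± 0.20 (limma adjusted p = 7.14e-07). Pax1, a factor of pharyngeal pouch endoderm, had intensities of 17.2, 21.9, 18.7, 11.9 and 13.6 in spleen, against 259.6, 216, 257, 189 and 287 in thymus, a difference of -3.88 ± 0.20. Ctsl, the protease that generates peptides for selection of CD4 thymocytes, had intensities of 256, 362, 356, 288 and 237 in spleen, against 3245, 2248, 2014, 3119 and 2832 in thymus, a difference of -3.16 ± 0.19. The organs were apart for each. Trp63, Ly75 and Aire, the last a factor that displays tissue proteins to thymocytes, differed by -3.08, -2.29 and -1.66. Foxn1, the master factor of this epithelium, did not pass the filter and had intensities of 10.4, 10.4, 11.4, 10.4 and 10.4 in spleen, against 28.2, 59.9, 29.6, 30.1 and 40 in thymus. Epcam also failed the filter and had intensities of 10.4, 10.4, 10.4, 10.4 and 10.4 in spleen, against 24.6, 22.2, 58.5, 23.1 and 47.4 in thymus. Krt14 was at the floor on all 10 arrays.

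Stromal genes were mostly higher in spleen. Of 12 listed genes of splenic stroma 10 were measured and 4 passed the filter, and those 4 were called higher in spleen. Tcf21, a factor of spleen development, had intensities of 160.2, 261, 161, 202 and 139 in spleen, against 10.4, 11.3, 10.4, 11 and 10.4 in thymus, a difference of 4.07 ± 0.21 (limma adjusted p = 4.33e-06). Madcam1, an adhesion molecule of the marginal sinus, and Nr2f2, a factor of venous endothelium, differed by 2.82 and 2.25. Stab1, a scavenger receptor of sinus endothelium, differed by 1.20 ± 0.22. Nkx2-5, an early factor of spleen development, did not pass the filter and had intensities of 30.7, 26.7, 22.6, 27.8 and 24.3 in spleen, against 10.4, 10.4, 10.4, 10.4 and 10.4 in thymus. Pdpn, a marker of stromal cells, did not pass it either and had intensities of 10.4, 10.7, 17.3, 10.7 and 10.4 in spleen, against 43.1, 15.9, 70.5, 21.9 and 47.8 in thymus, higher in 4 thymuses than in any spleen. With no filter 6 of the 10 genes were called higher in spleen and 1 higher in thymus. Of 15 listed matrix and smooth muscle genes 15 were measured and 14 passed the filter, 8 were called higher in spleen and 1 higher in thymus. Tested without the filter, 6 of the 15 were called higher in spleen and 1 higher in thymus. Bgn, a small matrix proteoglycan, had intensities of 1925, 2330.3, 2385, 2544 and 1874 in spleen, against 219, 162, 267, 281 and 213 in thymus, a difference of 3.29 ± 0.13. The collagen chains Col1a2 and Col1a1 and the matrix protein Sparc differed by 3.08, 2.07 and 2.47. Dimmer probe sets of Col1a2 and Col1a1 had differences of -0.55 and 0.78 and were not called. Lum, another small proteoglycan, was higher in thymus at -2.30 ± 0.25. Of 10 listed endothelial genes 9 were measured and 7 passed the filter, and 5 were called higher in spleen. Tested without the filter, 6 of the 9 were called higher in spleen and 0 higher in thymus. Cldn5, a tight junction protein, had intensities of 205, 248, 159, 228 and 159 in spleen, against 18, 10.4, 14.5, 10.4 and 20.8 in thymus, a difference of 3.79 ± 0.28. Tie1, Eng and Cdh5 differed by 2.63, 2.24 and 1.74. Pecam1, which many blood cells also carry, had a difference of -0.97 ± 0.32 and was not called.

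The apoptosis and interferon lists had 2 called genes each, of 11 and 13 tested. All were higher in thymus, as were 8.72% of all genes tested. Of 16 listed apoptosis genes 13 were measured and 11 passed the filter, and 2 were called, both higher in thymus. Fas, a death receptor, had intensities of 14.6, 19.3, 12.4, 15.4 and 10.4 in spleen, against 70.4, 113, 128, 128 and 134 in thymus, a difference of -2.98 ± 0.27 (limma adjusted p = 6.96e-05). Nr4a1, a factor induced by receptor signalling in thymocytes, had intensities of 49.7, 146, 63.6, 75.1 and 70.6 in spleen, against 172, 139.9, 126, 243 and 205 in thymus, a difference of -1.19 ± 0.27, and the B6 spleen overlapped the thymuses. Without the arrays labelled DBA and C3H its call was lost, at -1.14 (limma adjusted p = 0.0552). Bcl2, a survival factor, and Bcl2l11, its antagonist in negative selection, had differences of 0.30 and -0.19 and were not called. Of 17 listed interferon-induced genes 14 were measured and 13 passed the filter, and Ifit2 and Ifit1 were called higher in thymus, at -1.58 and -1.21. Ifit1 lost its call without the 129, the AJ or the C3H pair, at -0.92, -1.20 and -0.98. The median difference of that list was -0.08, and its largest was 0.95, below the difference of Rsad2, another gene induced by interferon that was not listed.

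Genes of pancreas, striated muscle and fat were high on some arrays of 1 organ. Of 14 listed pancreas genes 8 were measured and 3 passed the filter. Ctrb1, a digestive protease precursor, had intensities of 39.6, 48.6, 56.2, 50.5 and 4811 in spleen, against 64.4, 213, 100.3, 31.2 and 45.9 in thymus, and Cel, a lipase, had intensities of 27.5, 63.2, 38.5, 49.6 and 2249 in spleen, against 70.6, 124, 92, 34 and 66.2 in thymus. Only the spleen labelled C3H was high in each. The summed intensity of the 8 genes was 15279 on that array and 282 to 502 in the other spleens, against 184 to 573 in thymus. Cela1 was called higher in spleen, at 2.69 ± 0.68, with intensities of 119, 128, 212, 303 and 2993 in spleen, against 38.2, 56.7, 70.5, 47.7 and 35.5 in thymus. It was also higher than every thymus in each of the other 4 spleens. Its mean log2 level was 10.3 in kidney, 8.79 in liver and 8.75 in adrenal, against 8.28 in spleen. Cela1 signal on these arrays is therefore not a mark of pancreas alone. Without the C3H pair its difference was 1.77 and it kept its call, and with no filter on dim genes it lost it (limma adjusted p = 0.0648). Of 12 listed striated muscle genes 11 were measured and 5 passed the filter, and Acta1, Myl1 and Tnnt3 were called higher in thymus. Acta1, skeletal muscle actin, had intensities of 10.4, 10.4, 10.4, 10.4 and 10.4 in spleen, against 56, 19.3, 27.3, 169 and 4235 in thymus, at least 11.1-fold higher in thymus on the mean of log2 values. All spleens were at the floor, and the thymuses spread widely. Myl1, a myosin light chain, had intensities of 33.9, 22.1, 13.4, 23.3 and 11.8 in spleen, against 49.6, 61.3, 56, 219 and 2617 in thymus. The thymus labelled C3H was the highest in both, and AJ the next. Without the C3H pair Acta1 did not pass the filter, and Myl1 and Tnnt3 were called at -1.83 and -1.42, against -3.02 and -2.20 with it. With no filter on dim genes Acta1, Myl1 and Tnnt3 lost their calls (limma adjusted p = 0.0888, 0.0981 and 0.0732). Acta1 and Myl1 lost their calls without the AJ pair, with adjusted p of 0.0621 and 0.0652 (limma). Of 10 listed fat genes 8 were measured and 7 passed the filter, and 5 were called higher in thymus. Ucp1, the uncoupling protein of brown fat, had intensities of 10.4, 10.4, 10.4, 10.4 and 13.1 in spleen, against 46.6, 45, 547, 1289 and 34.5 in thymus, a difference of -3.66 ± 0.80. Cidea, also of brown fat, had intensities of 10.4, 12.8, 10.4, 10.4 and 10.4 in spleen, against 32.4, 65.9, 277, 613 and 23.1 in thymus. The AJ and DBA thymuses were the highest in both. Without the AJ pair the differences of Ucp1 and Cidea were -2.84 and -2.47, against -3.66 and -3.15 with it. Adipoq, made by fat cells, lost its call without the AJ pair (-1.78) and without the DBA pair (-1.74). Pth, the parathyroid hormone, was measured and did not pass the filter, with intensities of 10.4, 11.8, 10.4, 10.4 and 11.8 in spleen, against 14.7, 35.6, 119, 28.7 and 27 in thymus, and the DBA thymus was the highest. Whether these tissues contributed to other differences was not tested. The Y-linked gene Eif2s3y was detected on all 10 arrays, with a difference of -0.25 ± 0.22 (limma adjusted p = 0.369), Kdm5d was at 12.3 to 99.9 and did not pass the filter, and Xist was at or near the floor on all 10.

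Among called genes, the 5 with the widest range of within-strain differences were Acta1, Myl1, Dmtn, Atp2a1 and Ucp1. H2-Ea and Ctrb1, which were not called, ranged more widely than these, by 10.8 and 8.84. The H2-Ea range runs from the pair labelled DBA to the pair labelled C3H, whose spleens correlated best with each other's strain profile. It therefore depends on the pairing by label. With 1 array per strain and organ all these ranges are described only. For Dmtn, which encodes a red cell membrane skeleton protein, the spleen minus thymus differences were 6.02, -0.06, 3.88, 5.39 and 4.74 in the order of strains given above. Tlcd4, a membrane protein gene, had differences of 3.72, -0.13, 2.35, 4.50 and 3.64. Both had the opposite sign in the B6 pair, and without it they differed by 5.01 and 3.55. For Acta1, Myl1, Ucp1 and Atp2a1, a calcium pump of fast muscle, the ranges over strains were 7.78, 7.25, 5.56 and 6.01. For Cd79a and Rag1 the ranges were 1.12 and 1.43.

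Among the 10 body tissues of the series, many of the called genes were at their highest in the organ that was higher here. Of the 623 genes higher in spleen, 311 (49.9%) had their highest mean in spleen, against 13.2% of all genes tested. Of the 454 genes higher in thymus, 209 (46.0%) had their highest mean in thymus, against 17.4% of all genes tested. The direction of the call fixes part of this count, since a gene higher in spleen cannot be highest in thymus. All 11 MHC class II genes, 19 of 20 B cell genes and 15 of 19 macrophage genes were highest in spleen. In the thymus the corresponding counts were 12 of 14 T cell receptor complex genes and 13 of 20 mitosis genes, and the other 7 mitosis genes were highest in testes. The testes held the highest mean of 7.38% of the genes higher in spleen, 16.3% of those higher in thymus and 18.3% of all genes tested. Some genes with large differences toward thymus were at a higher level elsewhere: the mean log2 level of Fxyd2 was 4.25 in spleen, 9.04 in thymus and 12.4 in kidney, and that of Dsp was 3.41 in spleen, 9.17 in thymus and 11.7 in heart. Coch was at 8.69 in spleen and at 3.38 to 3.50 in the other 9 body tissues.

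**Figure D5:**
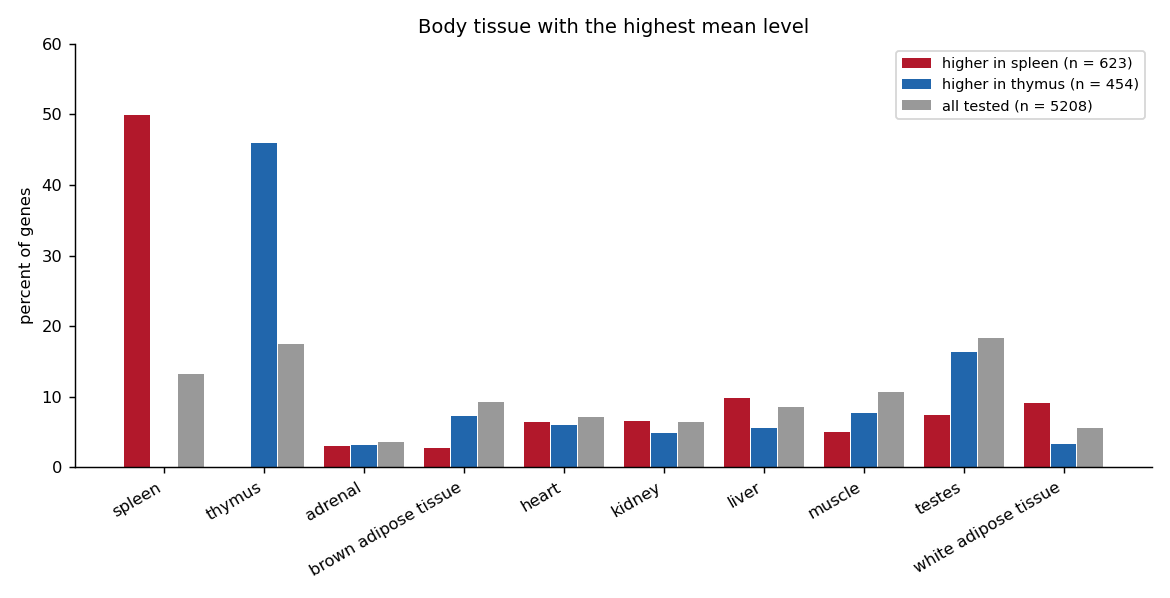
Percent of genes whose highest mean level among 10 body tissues (5 arrays each) lies in each tissue, for genes called higher in spleen (left bar), genes called higher in thymus (middle bar) and all genes tested (right bar). The spleen bar reaches 49.9% for genes higher in spleen and the thymus bar 46.0% for genes higher in thymus, above 13.2% and 17.4% for all genes tested.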

How the data were processed

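Intensities per probe set were deposited by the authors on a linear scale, with total RNA isolated by TRIzol and RNeasy per the labels' protocols. The software, background correction and scale factor are not named in the labels or headers used here. The 75th percentiles of the 10 arrays ran from 178 to 182, and 16.4% to 24.2% of probe sets lay at the floor. No array held values identical to a spleen or thymus array.

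Of 12488 probe sets, 66 controls were left out. Of the rest, 10833 carried 1 gene symbol in the platform annotation, 396 several and 1193 none. A gene was represented by its probe set with the highest mean over the 10 arrays, giving 8251 genes. Of 135 called genes with several tested probe sets, 14 had a probe set of the opposite sign. Values under the 20th percentile of the 150 arrays (10.4) were raised to it and expressed as log2. Genes whose mean in spleen or in thymus passed 5.74, the median log2 value, were tested with limma 3.58.1 in R 4.3.3, with strain as a block and a trend in the prior variance, over 10 arrays. The procedure was run on simulated data, and no rate of recovery or of false calls from that run is given here. Lists were described by counts only.

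The members and lists were chosen with earlier results of these data known. Named were Cd79a and Cd8a, the 12 largest differences each way, 4 called members per list (2 of the brightest where none was called), the 5 widest ranges over strains and 2 genes of opposite sign in 1 strain. Other genes were chosen after their values were seen. Promoter sequences came from RefSeq (GRCm38.p6), matched by symbol. Alternatives varied the floor, filter, scaling, probe set rule, block, trend, arrays in the fit and strains.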

Additional observations from a re-analysis of the deposited data

Results flagged for a closer look

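Among groups of 5 arrays, 258 were checked for an array far from the other 4, and 31 had one by Dixon's criterion, where the gap to the nearest array is divided by the range of the group. Chance flags about 1 in 20 such groups, and many of these genes share the same array.

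The B6 spleen was the lowest spleen in 12 of these groups. The ratio was 0.792 for the average level of the red cell precursor list, 0.869 for Car1, 0.841 for Rhag, 0.785 for Rhd, 0.885 for Slc4a1, 0.740 for Klf1, 0.804 for Dmtn and 0.729 for Tlcd4. For dividing cells it was 0.756 for Kif11, 0.783 for Top2a and 0.766 for Mki67, and for the platelet gene Gp9 it was 0.754. The same array was the highest spleen for the NK and cytotoxic list, at 0.726.

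The spleen labelled C3H was the highest for the pancreas list (0.858), Ctrb1 (0.927) and Cel (0.811). The AJ spleen was the lowest for Ccl22 (0.866). The AJ thymus was the lowest thymus for the red cell precursor list (0.908), the homing list (0.907), Dntt (0.768) and Satb1 (0.755). The DBA thymus was the highest for the MHC class II list (0.748), which holds H2-Ea (0.837), and the lowest for Cdc45 (0.744). The 129 thymus was the lowest for Fas (0.738). The ratio was 1.000 wherever 4 arrays lay at the floor and the other was above it, as for Rag1, Cidea, Dsp and Ucp1 in spleen and for Coch and Marco in thymus.

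Dmtn and Tlcd4, called higher in spleen, had a difference of the opposite sign in the B6 pair, at -0.06 and -0.13. With 1 array per strain and organ this difference between strains was not tested.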

How the results depend on the processing

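The main counts were 623 genes higher in spleen and 454 higher in thymus. Over 15 alternatives the first stayed within 1.5 times of its value, from 434 (filter at the 70th percentile, 3416 genes tested) to 648 (quantile normalization), and the second did so except under that filter, where it was 289 because fewer genes were tested. Leaving out 1 strain at a time gave 590 to 623 and 450 to 525. Without the replicate block of strain the counts were 619 and 453, and 1069 of the 1077 calls were shared; the pairing comes from the strain labels, of which 2 spleens did not match the other tissues. Without the arrays labelled DBA and C3H, an alternative chosen after seeing the data, they were 597 and 422, with 925 calls shared. With no filter they were 642 and 588 of 8251 genes. Quantile normalization gave 648 and 435, with a median difference of -0.12, against -0.13 in the main analysis. Of 104 genes followed through the alternatives, 13 lost their call under at least 1, and none of those turned sign. Atp2a1 lost its call under 7 alternatives, and Prim1 and Ifit1 under 5 each. Signs turned for 4 genes that were not called. Leaving out 1 strain at a time gave -0.71 to 0.10 for Mki67 and -0.32 to 0.50 for Ccna2, both positive only without the B6 pair. It gave -0.76 to 0.85 for Cel and -0.74 to 1.47 for Ctrb1, both negative only without the C3H pair. Without the arrays labelled DBA and C3H these last were -0.60 and -0.71. Values at the floor limit the size of differences of dim genes, and 5 arrays per organ limit the precision. The cause of the changes in single genes was not tested.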

Other observations

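The genes below belong to no list and were picked once their values were known, among the called genes with large differences. Toward spleen they included factors of early blood cells. Tal1, a factor of blood stem cells and red cell precursors, had intensities of 319, 34.4, 263, 325 and 396 in spleen, against 10.4, 10.4, 10.4, 10.4 and 10.4 in thymus, at least 19.7-fold higher in spleen since every thymus was at the floor. Its partner Lmo2 and its relative Lyl1 differed by 4.20 ± 0.16 and 3.84 ± 0.21. The B6 spleen was the lowest spleen for Tal1. Bpgm, which makes the red cell metabolite that releases oxygen from haemoglobin, differed by 3.59 ± 0.11, and the water channel Aqp1 by 3.47 ± 0.42. Irf4, a factor of activated B cells and plasma cells, had intensities of 448, 483, 517, 403 and 448 in spleen, against 50.3, 22.7, 42.9, 55.8 and 26.4 in thymus, a difference of 3.62 ± 0.23. Dll1, a Notch ligand needed for marginal zone B cells in mice, had intensities of 193, 289.9, 239.7, 271 and 223 in spleen, against 27, 17, 26.1, 25.5 and 25.3 in thymus, a difference of 3.34 ± 0.20. Spleen and thymus did not overlap for either of these. Aldh1a1, an enzyme that makes retinoic acid, differed by 4.23 ± 0.42 and Igfbp3, a binding protein of insulin-like growth factors, by 4.84 ± 0.23.

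Toward thymus the unlisted genes included lymphocyte and epithelial genes. Gfi1, a repressor used in early thymocytes, had intensities of 20.8, 23.4, 18.2, 14 and 19.6 in spleen, against 359.8, 358, 218, 299 and 287 in thymus, a difference of -3.99 ± 0.17. Sh2d1a, an adaptor of T and NK cells, differed by -3.98 ± 0.23, and the receptor Ephb6 by -4.04 ± 0.24. A dimmer Ephb6 probe set had a difference of -0.94 and was not called. Xrcc6, which encodes the Ku70 protein that joins DNA ends, had intensities of 138, 80.4, 103, 120.1 and 109 in spleen, against 738, 1047, 887, 671 and 781 in thymus, a difference of -2.91 ± 0.19. Of epithelial genes, Perp, a desmosome protein, had intensities of 10.4, 10.4, 10.4, 10.4 and 10.4 in spleen, against 144, 173, 280.5, 177 and 226 in thymus, at least 18.6-fold higher in thymus since every spleen was at the floor. The keratins Krt7 and Krt10 differed by -3.18 and -3.15, and the hemidesmosome genes Itgb4 and Lamb3 by -2.97 and -2.90. The matrix protein Tnc differed by -3.73 ± 0.25. Ubd, a ubiquitin-like protein induced by inflammatory cytokines, had intensities of 27.2, 64.5, 35.3, 61.7 and 34.2 in spleen, against 397, 436, 482, 379 and 601 in thymus.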
